A study of Mus musculus with 9 samples.

Results

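The sites described here bound both corticosteroid receptors after corticosterone (CORT) and lost the called peak of both when the hormone was washed out. They were chosen by overlap of the deposited MACS2 peak lists, on chromosomes 1 to 19 and X. A GR peak after CORT was taken when it overlapped an MR peak after CORT by at least 1 bp, overlapped no GR peak after washout, and had no MR peak that overlapped an MR peak after washout. This selected 3685 sites of 10567 GR CORT peaks and of 6444 GR CORT peaks that overlapped an MR CORT peak (57.2%, 95% Wilson interval 56.0% to 58.4%). They held 3882 of 14560 MR CORT peaks. A total of 3464 had 1 MR peak, 218 had 2 and 3 had 3, and 27 MR peaks were shared by more than 1 site.

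The mouse neuroblastoma line N2A lacks MR and has little GR activity of its own, so it was transiently transfected with both EGFP-GR and mCherry-MR, and each receptor was precipitated through its tag. Every group carried both receptors, which were rat cDNAs by the methods of the study and mouse cDNAs by the deposited design. The groups were vehicle, 100 nM CORT for 20 minutes, and 100 nM CORT for 20 minutes with 2 washes and 40 minutes more without hormone (washout), each with precipitated GR, precipitated MR and input chromatin. ChIP-nexus, in which an exonuclease trims precipitated DNA up to the crosslinked protein, was read from 3 replicates that the authors pooled into 1 list per group, so no value has a replicate error and a test over sites compares classes of sites in these libraries. The paper also called CORT peaks per replicate, and far fewer sites of either receptor recurred between replicates than the pooled lists hold. The recurring GR sites were fewer than the emptied sites, so not every emptied site can have recurred for GR. Which of them did cannot be read from the pooled lists.

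GR and MR are steroid-activated transcription factors that move to the nucleus when they bind hormone. Their DNA-binding domains are closely alike and both recognise the glucocorticoid response element (GRE), an inverted repeat of a short half-site around a spacer. MR has the higher affinity for CORT, so in tissues with both receptors, such as limbic brain, it is occupied at lower hormone levels than GR.

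Sequences of the strongest emptied sites whose GRE had at most 1 mismatch are shown first, because they show what a near-consensus element looks like at a site that was no longer called. All sequences are from the plus strand of GRCm38, with 15 bases to each side of the element, and the capitals mark the GRE. No protein-coding gene lay within 5 kb of the sites named by the nearest start.
Near Rpn1, chr6:88147545-88147589: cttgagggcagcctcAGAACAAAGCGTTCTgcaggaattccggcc
Ninj2 intron, chr6:120150948-120150992: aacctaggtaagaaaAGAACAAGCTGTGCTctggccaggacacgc
Near Gm10260, chr13:97598575-97598619: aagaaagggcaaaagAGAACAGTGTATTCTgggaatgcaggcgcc
Near Chd2, chr7:73609064-73609108: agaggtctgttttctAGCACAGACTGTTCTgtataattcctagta
Near Fam181b, chr7:93093104-93093148: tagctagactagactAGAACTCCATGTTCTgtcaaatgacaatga
Dnm3 intron, chr1:162244172-162244216: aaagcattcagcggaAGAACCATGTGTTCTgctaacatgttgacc
In all 6, one half-site was perfect and the other had 1 mismatch. Peak strength is given throughout as the −log10 p of the peak against input. At the site near Rpn1 the GR peak had 16.1 and the MR peak 14.3 after CORT, and these were 12.8 and 10.6 at the site in Dnm3, the gene of a dynamin of neurons. The element lay 0 bp from the GR summit near Chd2 and 67 bp from it near Gm10260. The nearest MR washout peak to any of the 6 lay 9083 bp away, at the site in Ninj2.

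The 3 strongest emptied sites with a GRE at genes of the lists described further on are shown next.
Slc18a2 intron, chr19:59266264-59266308: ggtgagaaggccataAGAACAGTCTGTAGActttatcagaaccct
Dusp2 upstream, chr2:127332526-127332570: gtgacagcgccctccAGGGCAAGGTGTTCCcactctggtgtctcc
Ret intron, chr6:118190415-118190459: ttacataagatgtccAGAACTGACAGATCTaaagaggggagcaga
Slc18a2 encodes the vesicular monoamine transporter, Dusp2 a MAP kinase phosphatase and Ret the GDNF co-receptor tyrosine kinase. Each of these elements had 3 mismatches, all of them in the same half-site for Slc18a2. A weaker emptied site in an intron of Gfra1, with 8.66 for GR and 6.54 for MR, had an element with 1 mismatch at 2 bp from the GR summit.

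For comparison, 3 sites are shown where the MR peak was still listed after washout (MR-kept sites), again the strongest with at most 1 mismatch. They were picked for display after the values were known.
P4ha2 intron, MR kept, chr11:54113170-54113214: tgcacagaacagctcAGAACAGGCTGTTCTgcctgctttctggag
Sec14l1 downstream, MR kept, chr11:117163132-117163176: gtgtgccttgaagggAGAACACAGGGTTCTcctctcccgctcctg
Near Rcc2, MR kept, chr4:140684248-140684292: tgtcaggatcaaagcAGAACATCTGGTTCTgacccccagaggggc
Their peaks were stronger, with 33.5 for GR and 31.4 for MR on the −log10 p scale at P4ha2, whose element was perfect in both half-sites.

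The whole GR peaks are given for the strongest emptied site of all and for the strongest with a GRE, also picked after the values were known. In the first, capitals mark the best match, which had 4 mismatches and did not count as a GRE, and in the second they mark a GRE with 3.
Scml4 intron, whole GR peak, chr10:42951542-42951709: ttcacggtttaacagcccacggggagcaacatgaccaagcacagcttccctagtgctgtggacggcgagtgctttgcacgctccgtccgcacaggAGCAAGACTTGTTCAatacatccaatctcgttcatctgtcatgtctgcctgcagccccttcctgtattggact
Pou3f1 upstream, whole GR peak, chr4:124653427-124653614: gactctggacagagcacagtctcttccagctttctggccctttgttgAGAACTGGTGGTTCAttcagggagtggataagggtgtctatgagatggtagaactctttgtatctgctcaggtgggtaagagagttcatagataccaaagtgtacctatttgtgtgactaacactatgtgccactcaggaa
Scml4 encodes a Polycomb-related protein and Pou3f1 a POU-domain transcription factor.

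The rule used overlap of 4 peak lists and no peak strength, width or summit distance. These values come from the same CORT peaks, so they are given as a description. The −log10 p of GR after CORT ran from 4.35 to 31.6 at emptied sites, with a median of 8.76, and from 4.60 to 50.4 at the 2562 MR-kept sites, with a median of 11.4. For the strongest overlapping MR peak it ran from 4.63 to 45.7 (median 9.75) at emptied sites and from 4.97 to 54.4 (median 14.9) at MR-kept sites. The ranges overlapped, with lower medians at emptied sites for both receptors and no emptied site above 31.6 for GR or 45.7 for MR. GR peaks were also narrower at emptied sites (median 127 bp) than at MR-kept sites (174 bp), and MR peaks were 73 bp wide against 130.0 bp. Summits of the receptors lay a median of 28.0 bp apart at emptied sites and 26.0 bp apart at MR-kept sites. The remaining 197 shared sites still had a GR peak after washout, 176 of them together with MR, and had medians of 18.1 for GR and 20.9 for MR.

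The emptied share fell with the strength of either receptor. With the shared sites split into 5 equal groups by MR −log10 p, it was 83.9% (95% interval 81.8% to 85.8%) in the weakest group, then 73.9%, 62.0% and 47.3%, and 18.8% in the strongest. Ranked by GR −log10 p it went from 76.0% to 23.6%. Among the 691 sites in the strongest group for both receptors, 66 (9.55%) were emptied. Strength on this scale grows with sequencing depth, and an emptied site is one with no peak called at washout, where the files give no depth and the lowest −log10 p in the lists was 5.67 for GR and 4.89 for MR.

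**Figure D1:**
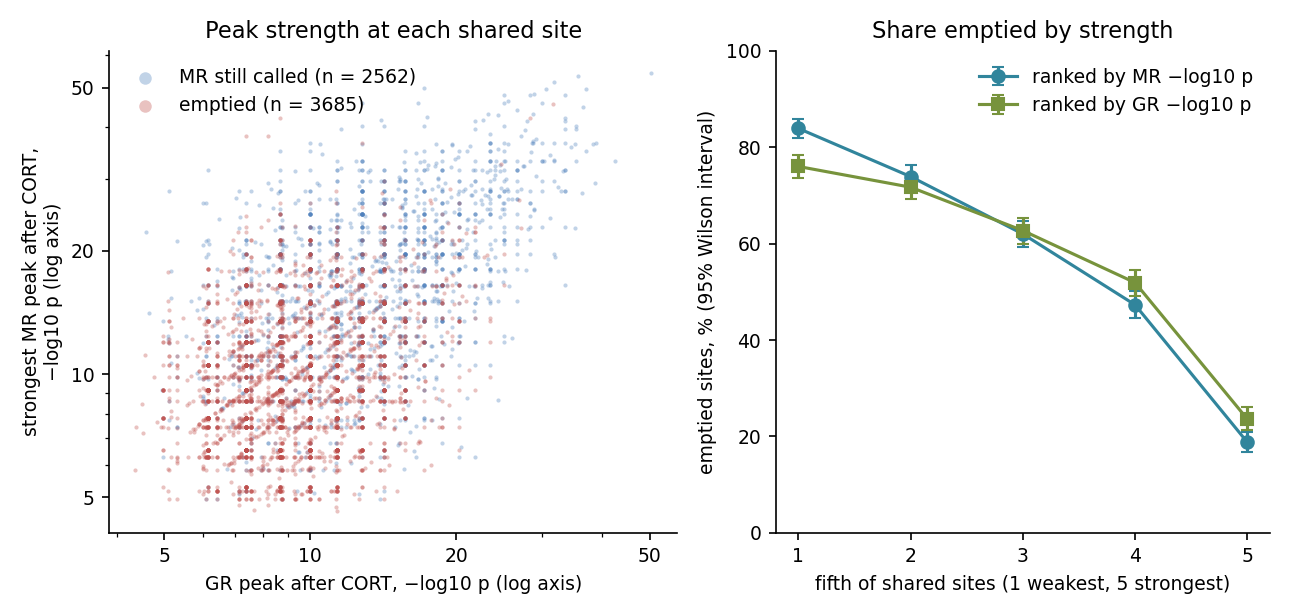
Left, GR and MR −log10 p after CORT (log axes) at each emptied site (red, n = 3685) and each MR-kept site (blue, n = 2562). Right, the percentage of shared sites emptied in each of 5 groups of strength with 95% Wilson intervals, which falls from 83.9% to 18.8% by MR and from 76.0% to 23.6% by GR.

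Loss of the peak was the usual outcome for both receptors. Of all GR CORT peaks 98.0% overlapped no GR washout peak, and of all MR CORT peaks 75.5% overlapped no MR washout peak. The emptied share of shared sites, 57.2%, was lower than either, but it needs the loss of both receptors and covers shared sites only. It is therefore not a like measure. Of the shared sites that were not emptied, 2562 kept MR alone. An MR washout peak lay close to some emptied sites. At 79 sites the GR peak itself overlapped an MR washout peak that missed the MR CORT peak, 396 sites had a washout peak of either receptor within 500 bp, and the median distance to an MR washout peak was 37328 bp. Just inside the rule, the 111 emptied sites with an MR washout peak within 50 bp had a median −log10 p of 9.17 for MR and 9.30 for GR after CORT. Just outside it, the 84 MR-kept sites whose CORT and washout MR peaks overlapped by at most 20 bp had 10.6 and 9.11.

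At the 10 emptied sites where the weaker receptor was strongest, no vehicle or washout peak of either receptor overlapped the GR peak. The site in an intron of Scml4 had 31.6 for GR and 45.7 for MR, and an MR washout peak lay 333 bp away. The site in an intron of Disc1, a neurodevelopmental scaffold protein, had 28.4 and 42.2, with the nearest MR washout peak at 1597 bp. The values at Scml4 were the highest of any emptied site for either receptor.

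The third, with 26.9 for GR and 26.6 for MR, lay in an intron of 3110082I17Rik and of Gpr146, a G protein-coupled receptor, 72 bp from an annotated Gpr146 start. The site 3269 bp upstream of Pou3f1 had 24.7 and 32.5, and no MR washout peak lay within 229023 bp. The others lay in an untranslated exon of Pgpep1 (27.2 and 22.7), an intron of the ceramide kinase gene Cerk (21.8 and 22.2), at the divergent starts of Erp29 and Tmem116 (21.8 and 22.9), on chromosome 13 away from protein-coding genes (21.8 and 22.2), 616 bp upstream of the actin-bundling gene Fscn2 (20.9 and 22.1), and in Ttyh2 downstream of Rpl38 (20.3 and 26.2). Of the 10 sites, 3 had a GRE and 3 lay within 1 kb of a protein-coding start. None overlapped an input border pair.

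Sequence was not used to choose the sites, so motif shares were set against each other by Fisher's exact test (two-sided), with Benjamini-Hochberg adjustment over 8 motifs and 2 comparisons. A GRE was any match to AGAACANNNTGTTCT on both strands, up to 100 bp from the GR summit, in which no more than 3 of the 12 fixed bases differed. It was found at 1426 emptied sites (38.7%, 37.1% to 40.3%) and at 47.8% (45.9% to 49.8%) of MR-kept sites. The odds ratio was 0.689 (95% interval 0.622 to 0.763), with an adjusted p of 1.29e-11 by Fisher's exact test. All GR CORT peaks had 37.7%, near the share of emptied sites, so the emptied share was low only beside MR-kept sites. Windows 1 kb to each side of emptied sites had 13.9%. The 4123 GR CORT peaks that overlapped no MR peak had 30.6% (29.2% to 32.0%), a value given without a test. Sites that kept GR had 36.5% (30.1% to 43.5%), which did not differ from emptied sites past the threshold (odds ratio 1.10, 0.814 to 1.48, adjusted p = 0.870 by Fisher's exact test).

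The GRE share of emptied sites was also lower than that of MR-kept sites at each level of peak strength. Within 5 groups of MR −log10 p over emptied and MR-kept sites, the emptied share with a GRE stayed between 38.2% and 40.0%, and the MR-kept share lay between 42.8% and 49.7%, higher in every group. Combined over these groups, the Mantel-Haenszel odds ratio was 0.715 (0.639 to 0.802, adjusted p = 7.06e-08 by the Mantel-Haenszel chi-square test), and over groups of G and C content, an alternative added after the data were seen, it was 0.696 (0.628 to 0.771, adjusted p = 8.04e-11).

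From 1 to 5 mismatches in the best element, the emptied share of the shared sites rose at each step. It was 31.4% (23.8% to 40.1%) with 1 mismatch, 47.0% with 2, 55.5% with 3, 59.5% with 4 and 63.8% (60.9% to 66.6%) with 5. The ends held few sites and did not follow this order, with 42.9% (21.4% to 67.4%) of the 14 sites with no mismatch and 54.3% (38.2% to 69.5%) of the 35 with 6. Of the 135 sites with 0 or 1 mismatch together, 32.6% (25.3% to 40.9%) were emptied and 64.4% kept MR, and 63.5% (60.6% to 66.3%) of those with 5 or more were emptied. The median MR −log10 p was lower where mismatches were more, at 13.4 with 0 or 1 mismatch and 10.6 with 5 or more.

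**Figure D2:**
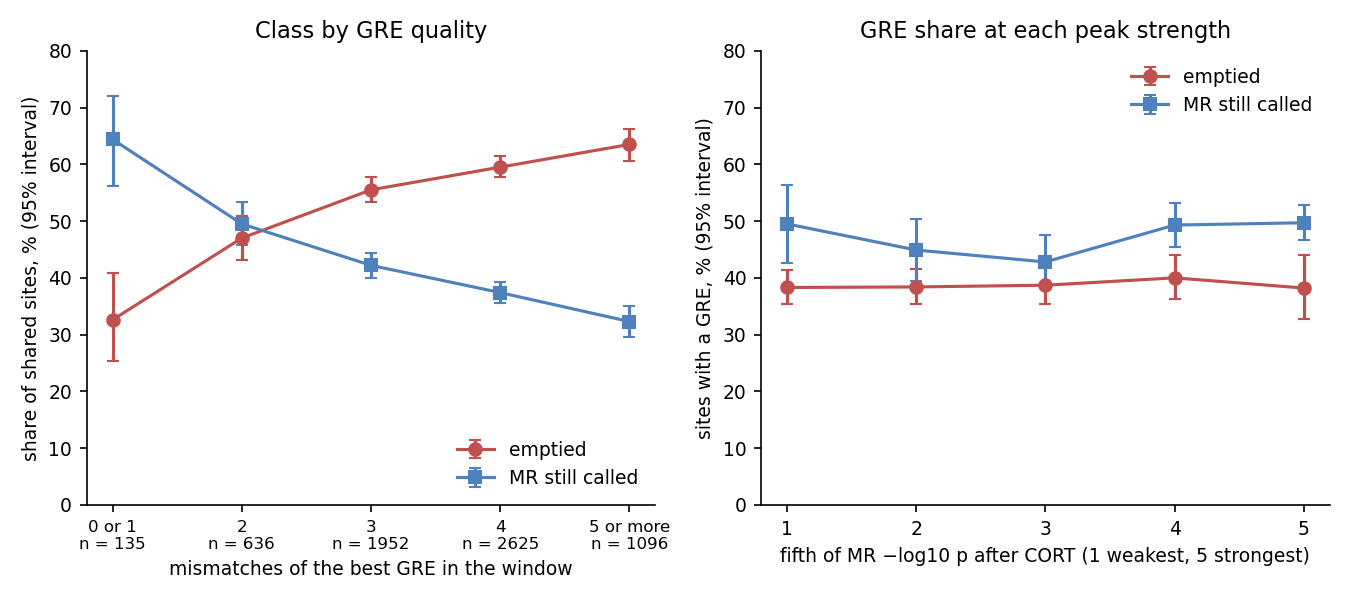
Left, the percentage of shared sites emptied (red) or MR-kept (blue) by mismatches of the best GRE within 100 bp of the GR summit. Right, the percentage of sites with a GRE in each of 5 groups of MR −log10 p, where emptied sites lie between 38.2% and 40.0% and below MR-kept sites in every group. Bars are 95% Wilson intervals.

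The elements also differed from those of MR-kept sites in distance from the summit and in single bases, which was not compared within groups of peak strength. Among sites with a GRE, the element lay within 20 bp of the GR summit at 38.4% (35.9% to 41.0%) of emptied sites and at 47.4% (44.6% to 50.2%) of MR-kept sites. A perfect half-site was found at 30.4% (28.1% to 32.9%) and 31.7% (29.1% to 34.3%), so these intervals overlapped. Counted from 1 at the outer end of the AGAACA half-site, half-sites at emptied sites matched the consensus less often at positions 4 (79.3% against 85.9%), 5 (88.8% against 92.5%) and 6 (77.2% against 81.7%), and more often at positions 1 (71.7% against 66.6%) and 3 (61.4% against 56.0%). The 95% intervals did not overlap at these 5 positions and overlapped at position 2 (85.3% against 87.6%). These shares are a description, since both half-sites of an element come from the same site and the same limit on mismatches binds them.

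GATA and Phox2a motifs were also less frequent at emptied sites than at MR-kept sites. Neither differed past the threshold from sites that kept GR, and the other classes of GR peaks were not tested. GATA factors and the homeodomain factor Phox2a are regulators of sympathetic neuron identity. AGATAA, the GATA motif, was found at 10.3% (9.32% to 11.3%) of emptied and 14.9% (13.5% to 16.3%) of MR-kept sites, with an odds ratio of 0.654 (0.562 to 0.762) and an adjusted p of 4.16e-07 by Fisher's exact test. Emptied sites had the same share as their flanking windows (10.3%) and lay near all GR CORT peaks (11.5%). GR CORT peaks that overlapped no MR peak had 10.5% and sites that kept GR 9.14%. TAATNNNATTA, taken as the Phox2a motif with at most 1 mismatch, was found at 6.38% (5.63% to 7.21%) of emptied and 9.64% (8.56% to 10.8%) of MR-kept sites (odds ratio 0.638, 0.530 to 0.769, adjusted p = 1.46e-05 by Fisher's exact test). The flanks of emptied sites had 8.48% and all GR CORT peaks 7.16%. GR CORT peaks that overlapped no MR peak had 6.31% and sites that kept GR 7.61%. In a window of 50 bp to each side the Phox2a odds ratio was 0.717 with an adjusted p of 0.135.

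Combined over the 5 groups of MR strength, both motifs were again less frequent at emptied sites, with Mantel-Haenszel odds ratios of 0.574 (0.484 to 0.681, adjusted p = 3.76e-09) for GATA and 0.649 (0.527 to 0.799, adjusted p = 3.61e-04) for Phox2a by the same chi-square test. The GATA share was lower at emptied sites in every group. The Phox2a share was lower in 4 of the 5, and in the weakest group it was 5.89% (4.62% to 7.48%) at emptied and 5.05% (2.77% to 9.05%) at MR-kept sites. Sites were emptied at 62.0% (60.4% to 63.7%) where neither a GRE nor a GATA motif was found, 53.3% with a GRE alone, 51.0% with a GATA motif alone, and 45.4% (40.1% to 50.8%) with both. The GATA motif overlapped the GRE at 12 of the 1426 emptied sites with a GRE, and none of the other motifs did so at more than 9.

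NF-1, a family of factors often found at steroid receptor sites, went the other way. TTGGCANNNNNTGCCAA with at most 2 mismatches was found at 50 emptied sites (1.36%, 1.03% to 1.78%) and 16 MR-kept sites (0.625%, 0.385% to 1.01%), and at 1.00% of all GR CORT peaks. The odds ratio was 2.19 (1.24 to 3.85, adjusted p = 0.0214 by Fisher's exact test). Within groups of MR strength it was 1.76 (0.978 to 3.18, adjusted p = 0.257 by the Mantel-Haenszel chi-square test), so the call did not hold there.

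The other 4 motifs were not past the threshold. AP-1 (TGACTCA) was found at 8.93% of emptied sites, 9.45% of MR-kept sites and 8.73% of all GR CORT peaks (odds ratio 0.940, 0.790 to 1.12), and at 3.76% of flanks. The E-box CAGCTG was found at 15.4%, 15.0% and 15.1% (1.03, 0.896 to 1.19). The SP1 motif GGGCGG was found at 6.51%, 6.44% and 6.81% (1.01, 0.825 to 1.24), and the CRE TGACGTCA at 0.299%, 0.546% and 0.379% (0.545, 0.247 to 1.20). No motif differed past the threshold between emptied sites and sites that kept GR.

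**Figure D3:**
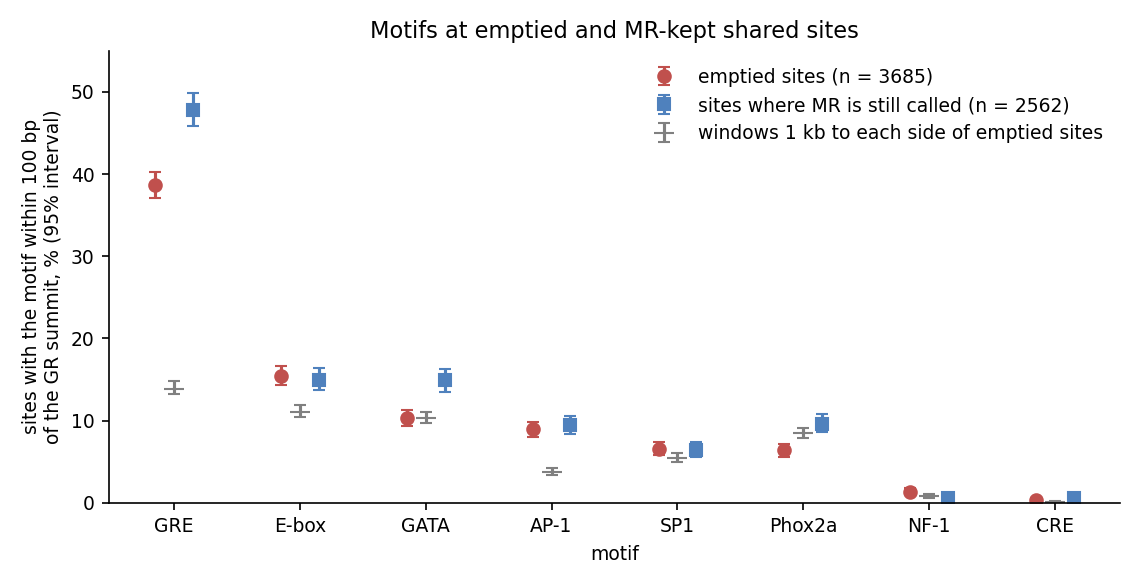
Percentage of emptied sites (red), MR-kept sites (blue) and windows 1 kb to each side of emptied sites (grey) with each motif within 100 bp of the centre, with 95% Wilson intervals. GRE, GATA and Phox2a lie lower at emptied sites (38.7%, 10.3% and 6.38%) than at MR-kept sites (47.8%, 14.9% and 9.64%), and the shares of AP-1, E-box, SP1 and CRE overlap.

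No difference in position between emptied and MR-kept sites passed the threshold over all sites, and some passed within groups of GR strength. Emptied sites were inside an annotated gene at 65.5% (63.9%, 65.3%), over 5 kb from every gene at 21.2% (23.3%, 21.8%), within 1 kb of a protein-coding start at 11.7% (10.2%, 12.3%), CpG-rich at 4.04% (2.97%, 4.02%), and in a repeat at 6.62% (5.97%, 6.70%), where the values in parentheses are MR-kept sites and all GR CORT peaks. None of these 5 differences passed the adjusted threshold, with adjusted p-values from 0.152 to 0.317 over 7 features by Fisher's exact test. The intervals of the odds ratios were 0.992 to 1.37 for starts and 1.04 to 1.83 for CpG-rich windows. Within groups of GR strength, CpG-rich windows were more frequent at emptied sites (odds ratio 1.78, 1.31 to 2.43, adjusted p = 0.00298 by the Mantel-Haenszel chi-square test). So were sites within 1 kb of a start (odds ratio 1.26, adjusted p = 0.0355 by the same chi-square test), while sites over 5 kb from every gene were less frequent (0.851, 0.748 to 0.968, adjusted p = 0.0355, chi-square). Within groups of MR strength the odds ratio was 1.18 (0.983 to 1.41) for starts, 0.901 (0.788 to 1.03) for sites over 5 kb from genes and 1.53 (1.12 to 2.08) for CpG-rich windows, none past the adjusted threshold.

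Few shared sites of any kind could overlap signal without hormone, since the vehicle lists held only 50 GR and 52 MR peaks. A vehicle peak of either receptor overlapped 1 emptied site (0.0271%) and 3 MR-kept sites (0.117%), beside 0.530% of all GR CORT peaks. An input border pair overlapped 7 (0.190%) and 11 (0.429%), beside 0.681% of all GR CORT peaks (odds ratio of emptied against MR-kept sites 0.441, 0.171 to 1.14). Sites that kept GR differed in this, with 19.8% (14.8% to 25.9%) over a vehicle peak and 17.3% (12.6% to 23.1%) over an input border pair.

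Emptied sites were spread over the genome, and some lay near kept sites. The emptied share per chromosome ran from 52.6% (chromosome 14) to 62.1% (chromosome 4). A block on chromosome 8 (chr8:119910841-124345722, annotated as Gm20388), dense in peaks, held 172 shared sites, of which 94 (54.7%, 47.2% to 61.9%) were emptied, against 54.6% on the rest of that chromosome. Of 1735 neighbouring pairs of shared sites within 10 kb, 540 were both emptied, 746 were 1 emptied and 1 kept, and 449 were both kept. A kept shared site lay within 10 kb of 776 emptied sites (21.1%), while another kept shared site lay as near to 803 MR-kept sites (31.3%). MR-kept sites thus had another kept site nearby more often than emptied sites had a kept one, which was not tested.

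A total of 2708 protein-coding genes had a shared site in the gene or within 5 kb. In 1350 of them (49.9%) every shared site was emptied, in 802 none was, and 556 had both kinds. Over the 4361 shared sites near a protein-coding gene, 58.0% were emptied. The share of genes with emptied sites only was 62.8% of the 1791 genes with 1 shared site, 29.0% with 2 to 4 and 3.80% of the 158 genes with 5 or more.

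The genes with the most emptied sites and no kept one were Coro1c, an actin-binding coronin, and Rbfox2, a splicing regulator, with 7 sites each. In Coro1c the GR −log10 p ranged from 6.41 to 14.2 and the MR −log10 p from 5.20 to 16.5, and in Rbfox2 from 6.94 to 12.8 and from 6.54 to 10.6. Ntng2, a membrane-bound netrin of axons, and Pfkfb3, a regulator of glycolysis, had 6 each, Ldlrad3 and Tmem164 5 each, and Adgra3, Brinp2, Ddi2 and Dscaml1 4 each. A GRE was found at 4 of the 7 sites of Rbfox2 and at none of the 4 of Brinp2. The strongest MR peak at these 10 genes, 22.9 in Pfkfb3, was still under the 45.7 of the Scml4 site.

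Genes of 15 lists were set beside these shares, with no test. Glucocorticoid-induced genes kept most sites: 9 of 33 shared sites at 12 genes were emptied (27.3%, against 58.0% over all protein-coding genes), and their median MR −log10 p was 16.0. Of the 24 kept sites, 8 lay in coding exons of Nr3c1, the gene of GR itself, which the transfected plasmid also carries. Without them 9 of 25 (36.0%) were emptied, at a median of 15.1. All sites of Per1, Dusp1, Nfkbia, Cdkn1a and Gadd45g were kept.

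Ddit4 and Errfi1 were the glucocorticoid-induced genes with emptied sites only. Ddit4, an inhibitor of mTORC1, had 1 site 642 bp upstream of its start with 20.3 for GR and 9.82 for MR after CORT. Errfi1, an inhibitor of EGF receptor signalling, had 1 downstream with 8.73 and 6.77. Neither had a washout peak of either receptor.

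Fkbp5, the co-chaperone induced by glucocorticoids, held both kinds, with 4 of 10 sites emptied. The emptied ones had GR values from 8.66 to 14.2 and MR values from 6.54 to 19.6, and none overlapped a washout peak. Its strongest site, with 37.0 for GR and 49.7 for MR, kept MR at 43.6.

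The lists with the highest emptied shares were receptors of the neuronal surface. Neurotrophin and GDNF receptors with Alk had 16 of 19 shared sites emptied (84.2%), at a median MR −log10 p of 10.6. Ret had 4 emptied sites and no kept one, with GR values from 7.38 to 12.8 and MR values from 6.54 to 19.6. Gfra1, the GDNF-binding co-receptor of Ret, had 3 emptied sites and Alk, a receptor tyrosine kinase, also 3, while Gfra2 had 1.

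Ngfr, the low-affinity neurotrophin receptor, had 1 in a coding exon with 11.1 for MR. Ntrk3, the neurotrophin-3 receptor, had 4 of 6 emptied, and the single site of Gfra4 was kept. At glutamate and GABA receptor genes 6 of 8 were emptied, 4 of them in the kainate receptor gene Grik5, while Gria2 and Grin2d kept theirs. Adjacent GR peaks count as separate sites in these shares. Examples are chr7:25056954-25057134 and chr7:25057185-25057500 in Grik5, and chr17:72326329-72326494 and chr17:72326545-72326644 in Alk.

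Synaptotagmins, calcium sensors and related proteins of vesicle release, had 10 of 15 sites emptied (66.7%). Syt3, Syt7, Syt8 and Syt14 had emptied sites only, the strongest at Syt8 with 13.9 for GR and 15.5 for MR. Syt1, Syt2 and Syt9 had both kinds. The emptied site of Syt2 had 7.38 and 13.4, and its kept site 23.4 and 24.5 with MR at 19.3 after washout.

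AP-1 genes had 3 of 7 sites emptied (42.9%). Jun (8.66 for GR and 10.6 for MR), Junb (17.2 and 9.17) and Jund (6.15 and 10.6) each had 1 emptied site and no kept one, while Fosl2, Atf3 and Jdp2 had kept sites only. Among circadian genes, Clock, with 7.38 for GR, Nr1d1 (8.66 and 9.17) and Bhlhe40 (11.4 and 7.83) had emptied sites only, and Per1, Per2 and Cry2 kept sites only. MAP kinase phosphatases had 4 of 7 emptied (57.1%), in Dusp2, Dusp5 and Dusp16, while Dusp1, Dusp4 and Dusp6 kept theirs. These lists hold 7 or 8 sites each, and no test was made.

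Axon guidance genes had 26 of 50 sites emptied (52.0%). Slit3, a secreted guidance ligand, held 11 emptied and 11 kept sites, and Nrp2, a semaphorin co-receptor, 3 emptied sites only. Potassium channel genes had 10 of 18 emptied (55.6%), and Kcnk9 had emptied sites and no kept one. Coactivators and corepressors had 7 of 13 emptied (53.8%).

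Catecholamine genes had 5 of 13 emptied (38.5%), 2 of them in Slc18a2. Th and Pnmt, which act early and late in catecholamine synthesis, had kept sites only. The 2 emptied sites of Ddc, which encodes the decarboxylase that makes dopamine, had GR values of 11.4 and 9.99 and MR values of 9.17 and 5.31, and MR washout peaks of 6.42 and 7.05 overlapped their GR peaks but not their MR CORT peaks. Of 102 emptied sites at genes of the lists, 6 were of this kind, also in Hif3a, Nrp2, Syt9 and Zbtb16.

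Sympathetic neuroblast transcription factors had 1 of 5 emptied (20.0%), at Sox11, and Gata3 and Klf7 kept theirs. Klf8 was the KLF gene with an emptied site, 1 of 2 in that list, and receptor chaperones had shared sites only in Fkbp5. The list of genes shown in detail, which were picked from these binding data, had 8 of 19 sites emptied (42.1%), and 10 of the 19 lay in Fkbp5. Dusp4 kept its site, and Syt2, Ddc, Sgk1 and Fkbp5 had both kinds.

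**Figure D4:**
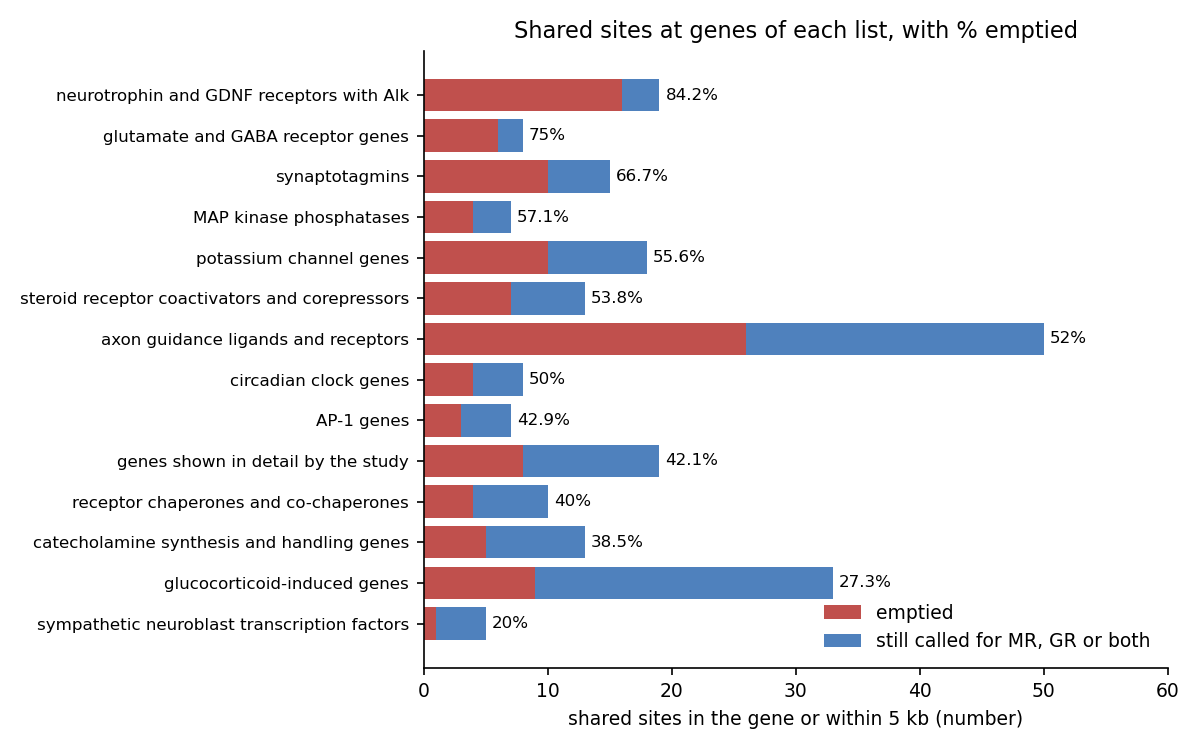
Number of shared sites in or within 5 kb of the genes of each list with at least 5 such sites, split into emptied (red) and kept (blue), with the percentage emptied. It runs from 20.0% at sympathetic neuroblast transcription factors and 27.3% at glucocorticoid-induced genes to 84.2% at neurotrophin and GDNF receptors with Alk, against 58.0% over all protein-coding genes.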

How the data were processed

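The 9 samples were GR, MR and input chromatin after vehicle, CORT and washout. The authors trimmed reads, aligned them to GRCm38 (mm10) with Bowtie2, removed duplicates with the same random barcode, filtered on mapping quality and called peaks on the pooled replicates with MACS2 2.1.1.20160309 against input at a false discovery rate of 0.05, and border pairs with MACE. The deposited −log10 p and −log10 q values are those of MACS2. The −log10 q stands under a heading for fold enrichment, and the summit offset under the heading for −log10 q. The deposited p-values of border pairs are those of MACE, and the GR CORT list has none; none of them was used here. No file holds counts, so the reads behind a peak are unknown, and intervals cover counting error only.

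Peaks overlapped when they shared 1 bp. Genes were those of GENCODE M21, within 5 kb. Sequence came from GRCm38 (samtools 1.23.1, pysam 0.24.0). Shares in 2 classes were tested by Fisher's exact test (two-sided, scipy 1.17.1) and Mantel-Haenszel odds ratios and chi-square tests over 5 groups (statsmodels 0.14.6), with the Benjamini-Hochberg adjustment. A CpG-rich window had at least 55% G and C and an observed to expected CpG ratio of at least 0.6. Methods were tested on simulated data.

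The members and the gene lists were chosen with earlier results of these data known. Genes named were those of 15 lists with an emptied site, those at the 10 emptied sites whose weaker receptor was strongest, and the 10 protein-coding genes with the most emptied sites and no kept one. Sdpr, on the lists, matched no annotated symbol, and some genes of the lists are not reported here by name. Alternatives changed the overlap, the thresholds, the window, the mismatches, the groups of strength and the gene set.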

Additional observations from a re-analysis of the deposited data

Results flagged for a closer look

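Border pairs, the stretches between exonuclease stops on opposite strands, were not used to choose the sites. They come from the same libraries as the peaks that were, so they are no independent evidence. Their counts are a description with no test. An MR washout border pair overlapped 32 emptied sites (0.868%, 95% Wilson interval 0.616% to 1.22%), although no MR peak was called on their MR CORT peaks after washout. An MR vehicle border pair overlapped 3 emptied sites and a washout input border pair 5. At MR-kept sites the share with an MR washout border pair was 12.3% (11.1% to 13.7%). Of the 32 sites, 16 had a GRE, 5 had an MR washout peak within 500 bp, 9 also had an MR CORT border pair and 3 an input border pair.

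An MR CORT border pair overlapped 320 emptied sites (8.68%, 7.82% to 9.64%), against 28.7% (27.0% to 30.5%) of MR-kept sites. The MR CORT peaks of emptied sites were also weaker (median −log10 p 9.75 against 14.9). The CORT input had border pairs at 3 emptied sites. The GR CORT list used here held 139 border pairs in all, and nothing was read from it.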

How the results depend on the processing

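No paired analysis was possible because the authors pooled the replicates into 1 list per group, and for the same reason no replicate could be left out. The number of emptied sites was 3475 with an overlap of 50% of the shorter peak, 3063 with summits within 50 bp, 3289 with no washout peak within 500 bp, 3678 without vehicle or input overlaps and, in an alternative chosen after seeing the data, 3606 without sites whose GR peak overlapped an MR washout peak. It fell to 1241 of 3116 shared sites when CORT peaks needed a −log10 q of at least 5, where the emptied share was 39.8% against 57.2%. The GRE share of emptied sites was 26.6% and 49.5% in windows of 50 and 200 bp to each side, 34.8% without repeats, and 9.31% and 81.1% with 2 and 4 mismatches, while the odds ratio stayed between 0.551 and 0.734 in all 14 alternatives and past the threshold in each. That of GATA did so in all 12 (0.572 to 0.706) and that of Phox2a in 11 of 12, the exception being 0.717 at 50 bp. The NF-1 odds ratio was no longer past the threshold in 5 of 12 alternatives, at 1.78 and 1.19 with 50 and 200 bp, 1.48 around the MR summit, and 1.76 and 1.90 over groups of MR and GR strength, and the cause was not tested. Over groups of GR strength, starts (1.26), intergenic sites (0.851) and CpG-rich windows (1.78) passed the threshold, as did starts (1.23) and CpG-rich windows (1.47) with no washout peak within 500 bp. No called result reversed. Genes with emptied sites only numbered 2002 among all annotated genes, 1409 at 1 kb, 2538 at 10 kb and 1350 for protein-coding genes. Sites that could not be called at the depth of the washout lists cannot be told apart from sites without receptor.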
